A study of Mus musculus with 55 samples.

Results

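The core genes of the circadian clock were described in the liver of male mice of the Collaborative Cross (CC), a panel of recombinant inbred lines bred from inbred founder strains. The 10 genes were chosen by symbol among the 37620 genes quantified. They are Arntl (also called Bmal1), Clock and Npas2, the activators, Per1, Per2 and Per3, the period genes, Nr1d1 and Nr1d2, which encode the nuclear receptors REV-ERB alpha and beta, and Dbp and Tef, which encode PAR bZIP factors. The study sequenced liver mRNA of 55 untreated male mice of 29 lines, to relate expression to the founder haplotypes of each line. Of these lines, 8 had 1 mouse, 16 had 2 mice and 5 had 3 mice. The groups compared here are therefore the lines, which share sex, tissue, housing and the absence of any treatment, and no group served as a control. The mice were between 8.0 and 11.9 weeks old and weighed between 12.8 and 38.0 g. They were kept in a light/dark cycle with free access to food, and the time of day at which the livers were taken is not given in the sources used here. Differences among lines in these genes can therefore not be told apart from differences in collection time, whose part was not tested.

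In the clock, ARNTL pairs with CLOCK or NPAS2 and switches on genes that carry an E-box, among them the Per genes, Nr1d1, Nr1d2, Dbp and Tef. The PER proteins, together with cryptochromes, then inhibit the pair, and the REV-ERB receptors repress Arntl, Clock and Npas2 through elements called RREs, so that the activators and their targets run at opposite times of day. DBP and TEF act on a further element, the D-box. In the liver the clock is strongly entrained by feeding, and many genes of metabolism follow it.

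These kinds of element can be seen in the promoter windows of a few of the members. RefSeq promoter windows (build GRCm38.p6, 250 bases before to 50 after a start site, both strands searched) were available for 9 of the 10 genes, in 14 windows, and 4 of the genes held a match. The sequences below are shown because they carry these matches, 5′ to 3′ on the strand of the gene, with the element in capitals. Coordinates of this build are not comparable with the mm9 coordinates given further on. Per1 held an E-box, CACGTG, that began at base -166 from a start site (chr11:69098758-69098813, plus strand). Tef held an E-box at base -127 from one start site (chr15:81802521-81802576, plus strand) and at base -138 from another (chr15:81811251-81811306, plus strand). Per3 held a pair of D-boxes, TTANGTAA, that began at bases -205 and -158 from its start site (chr4:151044791-151044895, minus strand). Arntl held both of its known RREs, one beginning at base -10 from a start site (chr7:113207492-113207521, plus strand) and one at base 27 (chr7:113207528-113207557, plus strand).
Per1, E-box: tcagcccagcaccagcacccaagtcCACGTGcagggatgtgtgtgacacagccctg
Tef, E-box of the first start site: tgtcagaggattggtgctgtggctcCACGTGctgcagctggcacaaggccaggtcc
Tef, E-box of the other start site: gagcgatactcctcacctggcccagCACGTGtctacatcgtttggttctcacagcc
Per3, D-boxes: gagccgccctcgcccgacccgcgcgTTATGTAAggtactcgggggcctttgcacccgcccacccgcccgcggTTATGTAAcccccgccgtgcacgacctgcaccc
Arntl, first RRE: attggtcggAAAGTAGGTTAgtggtgcgac
Arntl, other RRE: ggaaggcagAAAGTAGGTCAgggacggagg
Of all 32851 promoter windows, 7.15% held the E-box, 2.32% the D-box and 0.0609% the RRE. The RRE was searched as the capitals of both Arntl lines, with the base in which they differ left free, so that its presence in Arntl is no result. A match is a description of these windows and not a binding site, and no match says only that the letters are not within this short distance of an annotated start.

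The depth, taken as the fragments that RSEM assigned to annotated genes, lay between 20542671 and 33953036 per mouse. Over the 29 line means, the correlation of a member's log2(FPKM + 1) with log2 depth lay between -0.267 for Per2 and 0.138 for Dbp, apart from Nr1d1 at 0.516 (Spearman rho 0.327). All livers carried the hepatocyte markers (Alb, Ttr, Apoa1, Tat and Cps1, all 5 expressed, summed FPKM from 14700 to 63600). The 5 Kupffer cell markers summed to between 10.2 and 263 and had a correlation of 0.396 with Arntl over lines, against -0.383 for the hepatocyte and 0.339 for the stellate cell markers. The summed FPKM of the 3 pancreas markers reached 358 and that of the 3 muscle markers 932, with medians of 0.03 and 0, with correlations of 0.232 and -0.113 with Arntl. The part of cell composition and depth in the results below was not tested, and in bulk tissue fewer cells of a type and less RNA per cell cannot be told apart. The labels of lines IL-1052 and IL-2750 were not separated by expression. Over the 11284 expressed genes (highest FPKM at least 2), mouse 4302 of IL-1052 was most similar to mouse 4429 of IL-2750 (Spearman rho 0.977) and mouse 4303 of IL-1052 to mouse 4430 of IL-2750 (0.968). The members followed the same split. Arntl was 0.49 and 0.34 FPKM in mice 4303 and 4430 and 1.43, 1.71 and 1.00 FPKM in mice 4302, 4429 and 4431, and Dbp was 82.5 and 62.0 FPKM against 29.6, 35.6 and 34.5 FPKM. The tests among lines and against Arntl and the intraclass correlations are given with and without these lines. The spread among line mates, the pairs of members, the gene lists and the isoforms are given with them only.

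Arntl encodes the subunit without which the clock loop does not run. Its gene (ENSMUSG00000055116, mm9 chr7:120350979-120457636, plus strand, protein coding) varied more than Clock on the log2(FPKM + 1) scale. The SD of line means was 0.863, against 0.45 for Clock. Npas2 had 0.381, but it did not exceed 1.70 FPKM, where adding 1 compresses differences. As a fold, Arntl cannot be set against Npas2, which was listed at 0 in some mice. Levels are FPKM, fragments per kilobase of transcript, scaled to the mapped fragments of the library. Arntl was lowest at 0.11 in a mouse of IL-2146, had a median of 1.80 over the 55 mice and was highest at 8.39 in a mouse of IL-2011, a 76.3-fold range. The lowest mouse had 10 estimated fragments on Arntl and the highest count was 584. By line, IL-2146 was lowest at 0.185 ± 0.106 (SD, n = 2) and IL-72 highest at 7.94 ± 0.544 (SD, n = 2), with no overlap between their mice. In the order of the line means on the log2(FPKM + 1) scale, 26 of the 28 neighbouring lines lay closer together than the spread of line mates (pooled SD 0.348). Sorting many means places neighbours close together. Over the members the count ran from 25 for Clock to 28 for Npas2 and Nr1d2, so it does not show whether lines differ.

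Clock (ENSMUSG00000029238, chr5:76639992-76733817, minus strand), the partner of ARNTL, ranged only from 1.17 through a median of 4.79 to 7.88 FPKM. The low end was set apart. IL-2146 (1.22 ± 0.0707 FPKM, SD, n = 2) and the single mouse of IL-2126 (1.32 FPKM) lay below every other liver, the next of which was at 2.38 FPKM in IL-4457. The largest gap between neighbouring lines took up 32.7% of the range of line means. Npas2 (ENSMUSG00000026077, chr1:39250576-39420079, plus strand), the alternative partner, was nearly silent in most livers. Its median was 0.14 FPKM, 2 mice were listed at 0, and its highest value of 1.70 FPKM in a mouse of IL-3575 stayed under the threshold for an expressed gene, so that it is absent from the tests over expressed genes. The lines with the highest Npas2, IL-72 (1.43 ± 0.247 FPKM, SD, n = 2) and IL-3575, were among those with the highest Arntl.

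The period genes had the inverse order. Per1 (ENSMUSG00000020893, chr11:68908719-68923462, plus strand) ranged from 0.10 in a mouse of IL-3575 through 3.27 to 8.63 FPKM in a mouse of IL-521, an 86.3-fold range. The lowest mouse had only 12 estimated fragments on Per1. The mates of IL-521 were at 8.55 and 8.63 FPKM, and those of the lowest line, IL-3438, at 0.32 and 0.18 FPKM. Per2 (ENSMUSG00000055866, chr1:93312561-93355907, minus strand) ranged from 0.38 through 1.70 to 6.42 FPKM, with the single mouse of IL-2126 highest. Per3 (ENSMUSG00000028957, chr4:150377761-150418774, minus strand) ranged from 0.16 in a mouse of IL-2011 through 1.51 to 8.37 FPKM in a mouse of IL-2146. The line means of Per3 spanned from 0.220 ± 0.0849 (SD, n = 2) in IL-2011 to 7.13 ± 1.75 FPKM (SD, n = 2) in IL-2146.

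The REV-ERB genes were among the more abundant members. Nr1d1 (ENSMUSG00000020889, chr11:98629246-98636647, minus strand) ranged from 4.80 in the mouse of IL-2126 through 25.8 to 57.3 FPKM in a mouse of IL-521. The lowest mouse stood apart from the next lowest, at 8.97 FPKM in IL-2011. Nr1d1 overlaps Thra, which lies on the other strand, and since the quantification did not use strand, fragments of the overlap cannot be told apart. Nr1d2 (ENSMUSG00000021775, chr14:19036568-19071641, minus strand) ranged from 6.96 through 16.2 to 27.8 FPKM, the smallest range of the members as a fold (3.99-fold). Its lowest line was IL-72 (7.80 ± 0.134 FPKM, SD, n = 2) and its highest IL-3348 (25.7 ± 2.91 FPKM, SD, n = 2).

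Dbp had the widest range of the members. DBP and TEF are the output factors through which the clock reaches enzymes of detoxification. Dbp (ENSMUSG00000059824, chr7:52960458-52965525, plus strand) ranged from 0.50 in a mouse of IL-72 through 27.8 to 139.81 FPKM in a mouse of IL-2146, a 280-fold range. The lowest mouse had only 14.52 estimated fragments on Dbp. By line, IL-72 was at 1.04 ± 0.764 (SD, n = 2) and IL-2146 at 124 ± 22.2 FPKM (SD, n = 2), so the lines that marked the ends of the Arntl order marked the opposite ends for Dbp. Tef (ENSMUSG00000022389, chr15:81632851-81657291, plus strand) ranged from 6.06 in a mouse of IL-72 through 22.0 to 64.7 FPKM in a mouse of IL-3348. Dbp overlaps Sphk2, Tef overlaps Gm17597 and Npas2 overlaps RP24-180L10.1, each on the other strand, and Npas2 also overlaps a further annotated gene on its own strand, with the same limit as for Nr1d1.

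**Figure D1:**
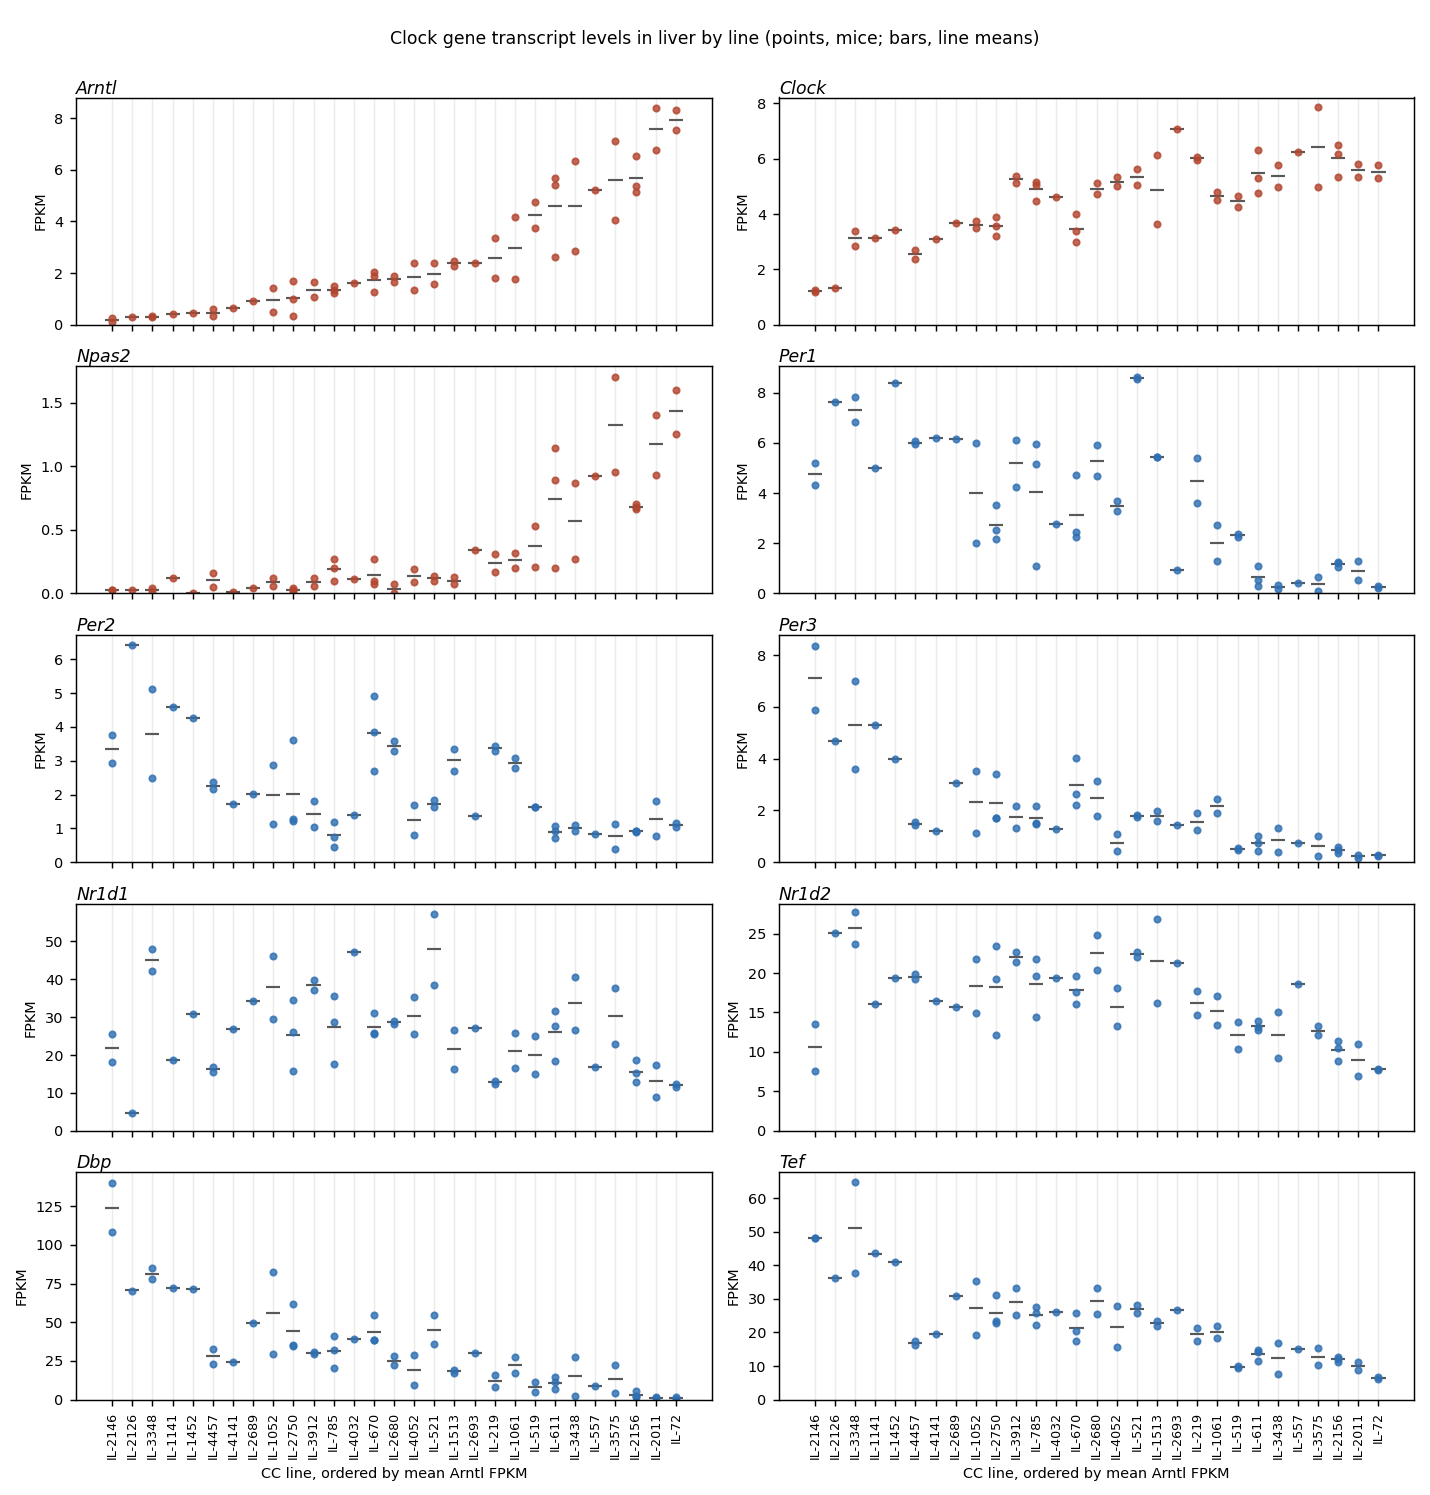
FPKM of each member in every mouse (points) by line, with line means as bars and lines ordered from the lowest to the highest mean Arntl. Clock and Npas2 rise from left to right with Arntl, the period genes, Dbp and Tef fall, and Nr1d1 shows no single direction.

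To see whether lines differed, the estimated counts of the 47 mice of the 21 lines with mates were tested with edgeR (quasi-likelihood F test). All 10 members were tested and all 10 differed among lines at an adjusted p under 0.05. The background was high, with 13523 of 15285 genes (88.5%) called, so these calls do not set the members apart. The adjusted p-values of the members lay between 3.40e-09 for Npas2 and 1.69e-04 for Nr1d1 (edgeR, Benjamini-Hochberg). By p-value Npas2 ranked 518 and Nr1d1 6124 among the genes tested. Without IL-1052 and IL-2750 all 10 were called again, among 13589 of 15249 genes.

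The intraclass correlation, the share of variance that lies between lines (van der Waerden scores of FPKM, all 55 mice), placed several members high among the 5949 variable traits, whose median was 0.592 and whose quartiles were 0.486 and 0.693. Arntl had 0.843, above 97.3% of these traits, Dbp 0.839 (above 97.1%), Per1 0.820 (above 95.8%) and Tef 0.816 (above 95.5%). Per3 and Clock had 0.741 and 0.732. Per2 (0.677), Nr1d1 (0.640), Npas2 (0.609, with only 4 rounded levels) and Nr1d2 (0.607) lay within the middle of the traits. Permutation of the line labels gave unadjusted one-sided p-values between 1e-05, the smallest that 100000 permutations can give, and 0.00114 for Npas2. Without IL-1052 and IL-2750 the values lay between 0.585 for Npas2 and 0.862 for Arntl. The placing of some members depended on the scale. On log2(FPKM + 1) in place of the scores, over all 55 mice, Npas2 had 0.788 and Clock 0.872, and only Dbp was lower than on the scores (0.794). The quartiles of all traits were not computed on that scale.

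**Figure D2:**
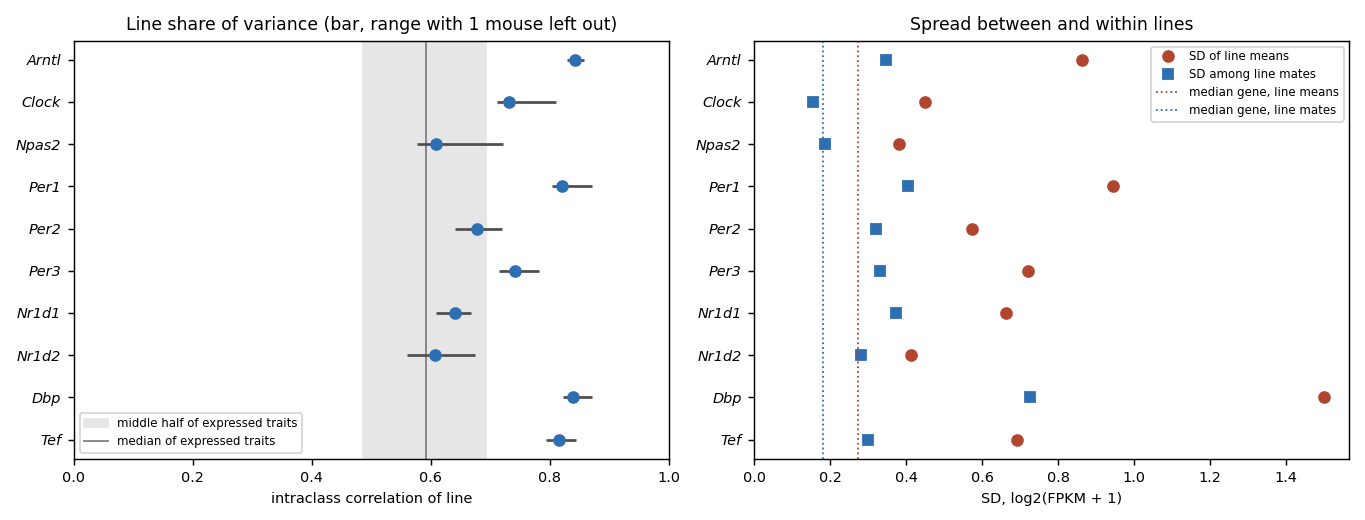
Left, the intraclass correlation of each member over 55 mice (points), with bars for its range when 1 mouse is left out, against the median and the quartiles of variable traits (grey). Right, the SD of line means and the pooled SD among line mates on the log2(FPKM + 1) scale, with dotted lines for the median expressed gene. All members exceed the median gene in both, except Clock among mates (0.155 against 0.180).

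A high share between lines did not mean that line mates agreed closely. On the log2(FPKM + 1) scale the pooled SD among mates was 0.727 for Dbp, larger than for 97.4% of expressed genes, 0.405 for Per1 (larger than for 90.2%), 0.374 for Nr1d1 (88.6%) and 0.348 for Arntl (86.7%). The median gene had 0.180. Clock was the exception, with 0.155, larger than for only 34.4% of genes. Line means spread further still, with an SD of 1.5 for Dbp, 0.944 for Per1 and 0.863 for Arntl, against 0.272 for the median gene. The ratio of the spread between lines to the spread among mates ran from 1.47 for Nr1d2 to 2.90 for Clock. These spreads include IL-1052 and IL-2750 and were not recomputed without them. Mates differed most in Arntl in IL-2750 (5.03-fold) and most in Dbp in IL-3438 (11-fold).

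To ask whether the members moved in opposite directions, every expressed gene was regressed on Arntl over the 29 line means (limma, log2(FPKM + 1)). Of 11283 genes, 647 rose (5.73%) and 448 fell (3.97%) with Arntl at an adjusted p under 0.05, 9.7% in either direction, and 25.3% had an unadjusted p under 0.05. Of the 8 members tested, 1 rose, 6 fell and 1 was not called. Dbp had the most negative correlation of all genes tested, with r = -0.919 (Spearman rho -0.890), and fell by 1.595 ± 0.127 (SE) log2 units for each log2 unit of Arntl (limma adjusted p = 9.50e-10). Tef was next (r = -0.877, rho -0.814, adjusted p = 1.28e-07), and Per3 and Per1 had ranks 4 and 5 from the most negative (r = -0.862 and -0.838, limma adjusted p = 4.53e-07 and 2.31e-06). Per2 (r = -0.664, adjusted p = 0.00314) and Nr1d2 (r = -0.607, adjusted p = 0.0111) also fell by the same test. Clock rose with Arntl (r = 0.776, rho 0.869), by only 0.405 ± 0.0625 (SE) log2 units per log2 unit of Arntl (limma adjusted p = 9.44e-05). Npas2 was tested only when no filter was placed on low values, and then rose with Arntl (r = 0.890, limma adjusted p = 2.25e-07 over 24789 genes).

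Leaving out the lines with the highest Arntl weakened Nr1d2 most among the members that were called. Without the 2 lines farthest from the Arntl median, IL-72 and IL-2011, r was -0.898 for Dbp, -0.838 for Tef, -0.828 for Per3, -0.807 for Per1, -0.656 for Per2 and 0.8 for Clock, and it was -0.439 for Nr1d2 (from -0.607). With 1 line left out at a time, r of Nr1d2 lay between -0.755 and -0.534. Without IL-1052 and IL-2750, 536 genes rose and 477 fell, and the same 7 members were called, with r = -0.916 for Dbp. With the mean of each run of mouse numbers (described further on) taken away, r was -0.923 for Dbp, -0.864 for Tef and -0.780 for Nr1d2. This step also removes the line means of IL-2146 and IL-1513, each of which fills a run alone. The number of genes called depended on the line IL-2126, without which 618 genes were called in all against 1095.

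Nr1d1 was not called, unlike its paralogue Nr1d2. For Nr1d1, r with Arntl was -0.188 over the line means (limma adjusted p = 0.541), and 0.00178 without IL-72 and IL-2011. Without IL-2126 r was -0.447 (limma adjusted p = 0.114). The lines with the highest Nr1d1 had Arntl in the middle of the range: IL-521 (47.9 ± 13.4 FPKM of Nr1d1, SD, n = 2) had 1.57 and 2.39 FPKM of Arntl, and the mouse of IL-4032 (47.1 FPKM) had 1.63 FPKM. Low values of Nr1d1 were found at both ends, with 12.4 and 11.6 FPKM in the mice of IL-72, where Arntl was highest, and 4.80 FPKM in the mouse of IL-2126, where Arntl was 0.31 FPKM. This was not uniform, since the mates of IL-3348 had 42.3 and 48.1 FPKM of Nr1d1 at an Arntl of 0.30 and 0.33 FPKM, and those of IL-219 had only 12.5 and 13.3 FPKM at an Arntl of 3.37 and 1.80 FPKM. Nr1d2 was also low in IL-72 (7.8 FPKM) and in IL-2146 (10.6 FPKM), where Arntl was lowest. At low Arntl it was high in IL-3348 (25.7 FPKM) and IL-2126 (25.1 FPKM). A term for the square of Arntl, added after the data were seen, called no gene by limma (1354 of 11283 genes had an unadjusted p under 0.05, 12.0%). For Nr1d1 the term was negative, -0.454 ± 0.154 (SE), with an unadjusted p of 0.00633 and an adjusted p of 0.296.

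**Figure D3:**
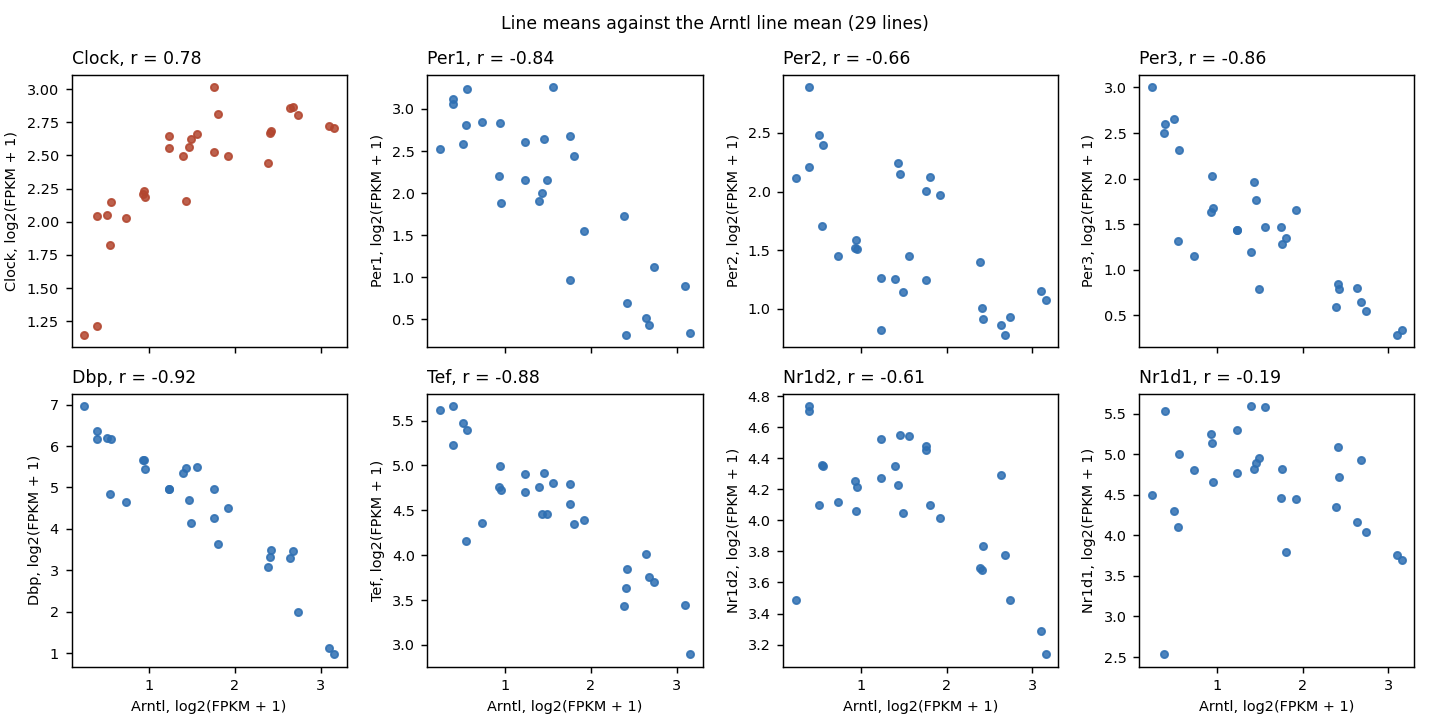
Line means of 8 members (vertical axes) against the line mean of Arntl (horizontal axes), both as log2(FPKM + 1), 1 point per line. Dbp (r = -0.919) falls and Clock (r = 0.776) rises, and Nr1d1 (r = -0.188) shows no single direction, with both low and high values at low Arntl.

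All 45 pairs of members were then correlated over the 29 line means, as a description. Of the 21 pairs that join an activator with another member, 20 were negative, with a median r of -0.677. The exception was Clock with Nr1d1 (r = 0.235, rho -0.0749). Of the 24 pairs within the activators or within the other members, 23 were positive, with a median of 0.664, and the exception was Per2 with Nr1d1 (-0.246). The closest pairs were Dbp and Tef (r = 0.931, rho 0.929), Per3 and Tef (0.915, rho 0.891) and Per3 and Dbp (0.898, rho 0.903). Of the period genes, Per2 and Per3 were closest (0.813), while Per1 was closer to Npas2, in the negative direction (-0.877), than to Per2 (0.695) or Per3 (0.711). Nr1d1 and its paralogue Nr1d2 had r = 0.290 (rho 0.368). It was 0.523 without IL-2126 and IL-72, the lines farthest from the median of Nr1d1.

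**Figure D4:**
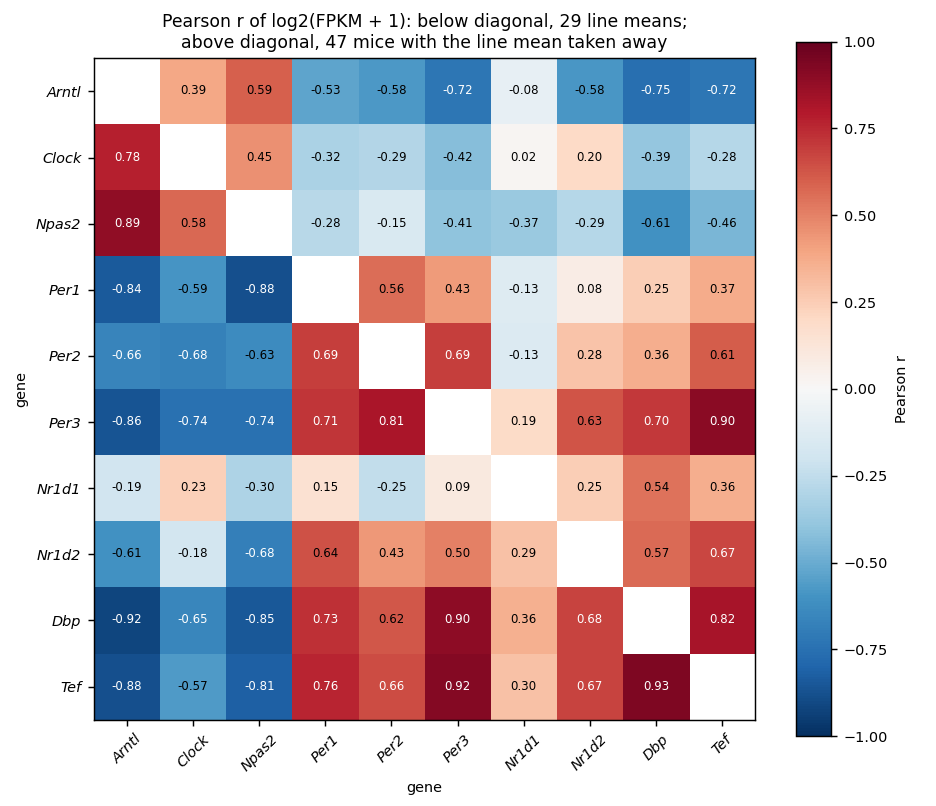
Pearson r of log2(FPKM + 1) for each pair of members, with red positive and blue negative, over 29 line means below the diagonal and over 47 mice with the line mean taken away above it. Of the 21 pairs that join Arntl, Clock or Npas2 to the other genes, 20 are blue below the diagonal and 19 above it.

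The same question was asked among line mates, which share their founder haplotypes. With line as a term, 9 of 11283 genes (0.0798%) were associated with the Arntl level of the mouse by limma at an adjusted p under 0.05, of which 5 rose (0.0443%) and 4 fell (0.0355%), and 1004 (8.9%) had an unadjusted p under 0.05. Of the 8 members tested, 3 were among the 4 genes that fell. Dbp had a within-line r of -0.752 and fell by 1.57 ± 0.262 (SE) log2 units per log2 unit of Arntl (limma adjusted p = 0.0213), close to the slope over lines. Per3 (r = -0.724) and Tef (r = -0.720) followed, with limma adjusted p = 0.0234 and 0.0238. The other gene that fell was Usp2, a deubiquitinase gene known as a clock target (r = -0.704), and the 5 that rose were Insig2, Ypel2, 1110067D22Rik, Pdia6 and Chka. Nr1d2 (-0.579), Per2 (-0.576), Per1 (-0.526), Clock (0.386) and Nr1d1 (-0.0787) did not pass. These calls were fragile. By limma none of the 11283 genes was called without IL-1052 and IL-2750 (adjusted p = 0.0668 for Dbp, 0.326 for Per3 and 0.320 for Tef), nor without either mouse of IL-3438 or of IL-3575, and 1 or 2 were called without a mouse of IL-219 or IL-1052 or without replicate 1 or 2 of IL-2750. The within-line r itself moved little, to -0.744 for Dbp, -0.660 for Per3 and -0.684 for Tef without IL-1052 and IL-2750. In the 16 lines of 2 mice, the mate with more Arntl had less Dbp in 13, less Tef in 13, less Per3 in 13, less Per1 in 13 and less Per2 in 12, and it had more Clock in 11. Without IL-1052 the counts for Dbp, Tef, Per3 and Per1 were 12 of 15 lines each. For Nr1d1 it had less in 9 and more in 7.

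The mates that differed most show these differences in single livers. In IL-3438, the mouse with 6.36 FPKM of Arntl had 2.53 FPKM of Dbp and 7.66 FPKM of Tef, and its mate with 2.86 FPKM of Arntl had 27.75 FPKM of Dbp and 16.89 FPKM of Tef. Per1 and Per2 of the same pair went the other way, with 0.32 and 1.09 FPKM in the mouse with more Arntl and 0.18 and 0.93 FPKM in its mate. That 11-fold difference in Dbp was the largest between mates of any line, where the median line had 1.86-fold. In IL-3575, mouse 4283 had 7.13 FPKM of Arntl, 7.88 FPKM of Clock and 4.18 FPKM of Dbp, and its mate 4297 had 4.07, 4.98 and 22.51 FPKM. Mouse 4283 also had the highest Clock and Npas2 and the lowest Per1 and Per2 of all livers. Its mate belongs to the next run of mouse numbers. The 3 mates of IL-785, whose numbers fall in 3 different runs, were close in Arntl, at 1.22, 1.36 and 1.49 FPKM. They were less close in Per1, which was 5.14 FPKM in mouse 4272, 1.08 FPKM in mouse 4434 and 5.94 FPKM in mouse 4477.

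Mouse numbers in the labels fall into 8 runs separated by gaps of more than 10, and what the numbers mark is not stated. All mates shared a run except in IL-785 and IL-3575, so line and run can be told apart only in part. Dbp relative to Arntl, as the difference of their log2(FPKM + 1), ranged from -2.64 to 6.80 over the mice with a median of 3.43. It was below 0, with less Dbp than Arntl, in 9 mice of 6 lines, all numbered in runs 2 and 3. In run 2, mice 4264 to 4283, the difference ran from -2.15 to 4.67 over 16 mice, and in run 1, mice 4234 to 4247, from 1.10 to 6.05 over 11 mice. The mice of IL-2146, which form a run of their own, were highest, at 6.80 and 6.62. With the mean of the run taken away, the intraclass correlation of line fell to 0.743 for Arntl and 0.806 for Dbp, and most for Npas2 (0.437) and Nr1d2 (0.444), while Nr1d1 stayed at 0.650. IL-2146 and IL-1513 each fill a run alone, so their line means are removed with the run mean. How much of the fall comes from this was not tested. When line was tested within runs by edgeR, all 10 members were called, among 10195 of 15285 genes.

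**Figure D5:**
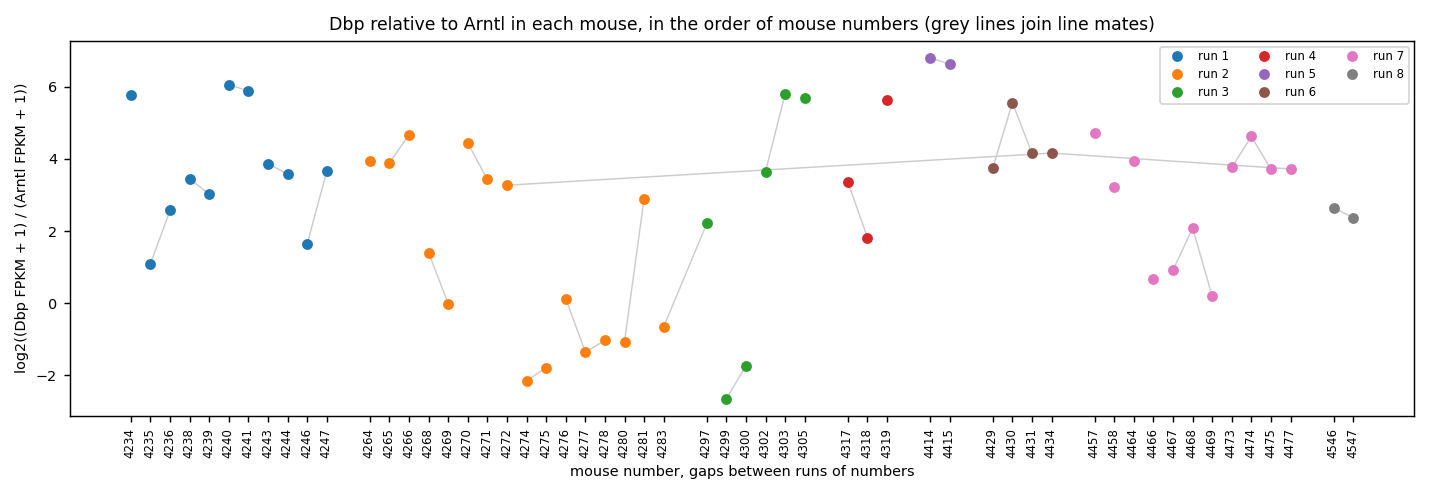
Difference of log2(FPKM + 1) between Dbp and Arntl (vertical axis) for each of the 55 mice in the order of their numbers, coloured by run, with grey lines between line mates. The values below 0 fall in runs 2 and 3, and the highest are the mates of IL-2146, at 6.80 and 6.62.

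Mice of neighbouring number but different line were compared with all pairs from different lines. The median absolute difference in log2(FPKM + 1) of 24 such neighbouring pairs was 58.2% of that of all 1454 pairs for Per2, 66.7% for Per1 and 78.9% for Arntl, against 93.6% for the median expressed gene. Only 4.32% of the genes had a lower percentage than Per2. Dbp was at 95.8% and Nr1d1 at 123%, so the members did not share this feature. Over all expressed genes, 41 of the 47 mice with mates had a line mate as the most similar mouse, by Spearman rho of FPKM. By the 10 members alone, 14 of 47 had a line mate as the nearest mouse. Here the measure was the distance in log2(FPKM + 1), with each member scaled to the same spread. The measure and the number of genes differ, and no other set of 10 genes was tried, so these counts cannot be compared.

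Other clock genes were examined as a list. Of 13 listed genes, 12 were expressed, of which 1 rose with Arntl, 2 fell and 9 were not called over line means (limma, all genes), with a median r of -0.0591 against 0.0284 for all genes. Over all genes tested, 5.73% rose and 3.97% fell. Ciart, a repressor of the ARNTL pair, fell most (r = -0.827, limma adjusted p = 4.13e-06) and ranged from 0.06 to 15.65 FPKM. Cry2, a cryptochrome gene, also fell (r = -0.597, limma adjusted p = 0.0158). Cry1 had r = 0.276, Hlf, a further PAR bZIP gene, r = -0.273, and Rora, whose product acts on the RRE, r = 0.221. Nfil3, a repressor at the D-box, had r = 0.490 and just missed the threshold (limma adjusted p = 0.0513).

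Of the liver genes known to follow the clock, most of those expressed fell as Arntl rose. Of 12 listed, 11 were expressed, of which 1 rose with Arntl, 7 fell and 3 were not called, with a median r of -0.739. The shares over all genes tested were 5.73% rising and 3.97% falling. Por, the electron donor of the cytochrome P450 enzymes, fell (r = -0.829, limma adjusted p = 4.13e-06) and ranged from 26.1 to 250.6 FPKM. Alas1, the first enzyme of heme synthesis, fell (r = -0.739, limma adjusted p = 3.10e-04) and ranged from 8.91 to 592.6 FPKM. Upp2 (uridine breakdown, r = -0.808), Wee1 (a kinase of the cell cycle, -0.800), Usp2 (-0.800), Gys2 (liver glycogen synthase, -0.794) and Nampt (NAD synthesis, -0.605) fell as well. Cirbp, a cold-induced RNA-binding protein gene, rose (r = 0.673, limma adjusted p = 0.00268). Cyp7a1, the rate-limiting enzyme of bile acid synthesis (r = -0.402), Elovl3 (fatty acid elongation, 0.400) and Lepr (-0.209) were not called. Within lines only Usp2 of this list was called, and none of the other clock genes.

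The expressed genes most like each member over the 29 line means, by Pearson r, were found among 11283 genes. For Arntl they included Asap2 (r = 0.942), Ypel2 (0.924), Clpx (0.917) and Dtx4 (0.908). The 5 most opposite were Dbp, Tef, A930033H14Rik (-0.867), Per3 and Per1. For Dbp they were Tef, Per3, Narf (0.826), Pcsk4 (0.825) and Sdhb (0.816), and the most opposite included, beside Arntl, Smarcd1 (-0.847), Slc30a10 (-0.843) and Asap2 (-0.837). For Per2 the nearest gene was Per3, for Per3 it was Tef, and for Tef it was Dbp. For Clock it was Caprin1 (0.903), for Npas2 Dnmt3b (0.890), for Per1 Coq10b (0.885), for Nr1d1 Tenc1 (0.782) and for Nr1d2 Pias2 (0.812).

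The deposited isoform ratios, the percentage of a gene's expression assigned to each annotated transcript, were then examined. Tef had 11 annotated isoforms, and the one with the highest median share, ENSMUST00000052561, ranged from 37.2% to 76.5% with a median of 57.2%. A minor isoform of Tef, ENSMUST00000164673, had an intraclass correlation of 0.745, with line means from 0.85% in IL-2126 to 10.0% in IL-2011. Per3 was divided between ENSMUST00000103204 (median 50%) and ENSMUST00000138052 (median 44.9%, intraclass correlation 0.528). The line means of the latter ran from 8.54% in IL-72 to 87.8% in IL-2011, lines that both had a Per3 level near the bottom of its range, where a share rests on few fragments. The main isoform of Nr1d2, ENSMUST00000090543, took between 87.9% and 99.4%, with its lowest line mean (88.3%) in IL-2146. For Dbp the main isoform ENSMUST00000080885 had an intraclass correlation of 0.161, and for Arntl ENSMUST00000047321 had -0.0105, against 0.839 and 0.843 for the total level of the same genes. The share of this Arntl isoform had a median of 95.5% and ran from 0% to 100%. Arntl had as few as 10 fragments in a mouse, so the limit of few fragments holds here too.

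Body weight and age, the only traits of the mice in the labels beside the line, were then tested in the same way, and no member passed. Over the 29 line means limma called none of 11284 genes for either trait, with 919 genes (8.14%) for weight and 662 (5.87%) for age at an unadjusted p under 0.05. Of the members tested, r with weight lay between -0.153 for Tef and 0.0314 for Nr1d1, and r with age between -0.122 for Nr1d1 and 0.146 for Per1. None of these had an unadjusted p under 0.05.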

How the data were processed

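Liver RNA of each mouse was sequenced from a stranded poly(A) library with paired reads of 50 bases. The authors mapped and quantified the fragments with RSEM 1.2.18 (Bowtie 2, default parameters) on mm9 with an Ensembl annotation, 1 mouse at a time. The deposited gene tables hold estimated counts, TPM and FPKM, and the deposited isoform tables give the percentage of each isoform. RSEM shares out fragments with several matches by maximum likelihood and by default does not use strand. The authors' TPM and FPKM are scaled by effective length and by library.

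Estimated counts were rounded and tested among lines with edgeR 4.0.16 (TMM, quasi-likelihood F test). FPKM was taken as log2(FPKM + 1), and expressed genes (highest FPKM at least 2) were tested against Arntl, body weight and age with limma 3.58.1, with Benjamini-Hochberg adjustment over all genes tested and a threshold of 0.05. The intraclass correlation used the study's bins and ranks, with 100000 permutations of the line labels. Line mates are separate mice. Gene positions are from an annotation of the same build, and promoter windows from RefSeq. Other tools were R 4.3.3, DESeq2 1.42.0 and Python 3.11.15. On simulated data for the Arntl association over lines, 200 of 200 changed genes among 11284 were recovered with 12 false calls. The change given per SD of Arntl was larger than each gene's own SD, so this recovery does not apply to weaker associations. For the differences among lines, 80 of 100 genes with a line SD of 0.5 (log2) and 89 of 100 with an SD of 1 were recovered among 14705, with 10 false calls in all. The members, gene lists and tests were chosen with earlier results of these data known. Named genes were the members, listed genes that passed the test against Arntl or act beside a member, the genes most like a member, and those called within lines, added after their values were seen. A few genes of these lists are not reported here.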

Additional observations from a re-analysis of the deposited data

How the results depend on the processing

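Over line means, the 7 members called kept their direction and call under every alternative limma fit, and Nr1d1 was never called. Leaving out IL-72 and IL-2011 together was not among these fits, so no member has a call there. Only r was computed, which turned from -0.188 to 0.00178 for Nr1d1 and from -0.607 to -0.439 for Nr1d2. All 10 members differed among lines under every alternative, also by DESeq2, as did most genes. DESeq2 called 13673 of 18149 genes. By edgeR, 13589 of 15249 were called without IL-1052 and IL-2750, and 13322 of 24300 with no filter on low counts. With line tested within runs, 10195 of 15285 were called, so these calls do not set the members apart. All 10 intraclass correlations kept an unadjusted permutation p under 0.05, but with the run mean taken away that of Npas2 fell from 0.609 to 0.437 and that of Nr1d2 from 0.607 to 0.444. Taking the run mean away also removes the line means of IL-2146 and IL-1513, which each fill a run alone. On log2(FPKM + 1) that of Npas2 rose to 0.788 and that of Clock from 0.732 to 0.872. The number of genes associated with Arntl over line means moved to 2493 with mice in place of line means and to 2028 with the run mean of mouse numbers taken away, and lay between 618 (without IL-2126) and 1192 (without IL-3348) with 1 line left out. The calls within lines were the least stable. The count of 9 genes became 118 with a pseudocount of 0.1, 0 with TPM, 0 with no filter on low values and 0 without IL-1052 and IL-2750, and lay between 0 and 13 with 1 mouse left out. With a pseudocount of 0.1, Per2 and Nr1d2 also passed (limma adjusted p = 0.0438 for both). For Nr1d1 within lines, r was 0.0224 with a pseudocount of 0.1 and between -0.252 and 0.00348 with 1 mouse left out, so it had no stable sign. The cause of these shifts was not tested. The curvature term was chosen after the data were seen. Of 1488 recomputed values of single genes, 1449 kept their direction and side of the threshold. Most of these came from fits with 1 mouse or 1 line left out, which differ little from the main fit, so the count is no measure of stability. No paired analysis was possible because replicate numbers only name the mice of a line and pair no mice between lines. Members with few fragments are measured with the least precision, such as Npas2, and Arntl, Per1, Per3 and Dbp in the mice where they were lowest. FPKM near 0 is compressed by the pseudocount.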
